A study of Mus musculus with 12 samples.

Results

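Levels of mRNA of 7 genes of LIF-STAT3 signalling were described in mouse blastocysts cultured with or without inhibition of p38-MAPK: Socs1, Socs2, Socs3, Stat3, Lifr, Il6st, and Jak1. They are 7 of the 34245 genes measured. The genes were picked by name with their p38-MAPKi differences already known, so these differences are given below as a description, and limma calls on them support nothing. Each of the 12 libraries came from a pool of 30 embryos of C57Bl6 x CBA/W hybrid parents, obtained after superovulation and cultured in KSOM medium with added amino acids. At E3.5, the embryos were moved to SB220025 at 20 µM, which blocks the kinase (p38-MAPKi), or to an equal volume of its solvent DMSO (control), and were collected after 4, 7, or 10 h. All 6 groups had 2 libraries. A pool of whole blastocysts mixes trophectoderm, epiblast, and primitive endoderm (PrE), so that fewer cells of a type and less RNA per cell cannot be told apart, and SB220025 was the sole inhibitor in these libraries. The study describes the replicates as biological duplicates, and p-values below measure the spread between such pools. At E3.5 + 4 h, and in controls from 4 to 7 h, this spread was taken from a trend over all genes, not from each gene.

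LIF is a cytokine that binds a receptor made of LIFR and gp130, the product of Il6st. JAK1, a tyrosine kinase bound to the receptor, then phosphorylates STAT3, which enters the nucleus and switches on target genes. The SOCS proteins are among these targets and close a feedback loop, as SOCS1 and SOCS3 block JAK activity or the receptor, whereas SOCS2 is best known for restraining growth hormone signalling through STAT5. In mouse embryonic stem cells the pathway maintains naive pluripotency, and in the embryo it sustains the inner cell mass during diapause.

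Promoters of Socs1 and Socs3 are shown because SOCS genes are known STAT targets, and to place the STAT motif that the text refers to. The RefSeq promoter table for GRCm38.p6 held windows of 300 bases, from 250 before to 50 after the start, for 6 of the 7 genes. It had no entry for Socs2, whose promoter was not searched. The 250 bases before the start of Socs1, at chr16:10785537-10785786 on the minus strand, and of Socs3, at chr11:117969367-117969616 on the minus strand, are printed from 5′ to 3′ with a STAT motif in capitals. The RefSeq start of Socs3 lies inside the gene interval of the deposited table, which begins further upstream, so its window falls within that interval.
Socs1: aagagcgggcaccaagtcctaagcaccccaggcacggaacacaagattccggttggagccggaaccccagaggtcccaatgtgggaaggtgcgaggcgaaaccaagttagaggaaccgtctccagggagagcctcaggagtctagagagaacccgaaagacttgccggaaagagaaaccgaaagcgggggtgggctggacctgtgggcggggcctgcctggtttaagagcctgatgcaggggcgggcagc
Socs3: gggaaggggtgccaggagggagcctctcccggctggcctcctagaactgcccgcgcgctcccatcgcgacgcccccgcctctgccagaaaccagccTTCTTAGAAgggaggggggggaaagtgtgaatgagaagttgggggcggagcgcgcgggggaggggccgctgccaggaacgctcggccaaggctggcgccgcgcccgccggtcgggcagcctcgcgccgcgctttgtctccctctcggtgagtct
The STAT motif searched was TTCNNNGAA, which reads the same on both strands. Socs3 held the motif once, 154 bases before the start, and no other member had it in the windows searched. It occurred in 8.30% of 32851 promoters of the same length. The AP-1 motif TGANTCA, the element bound by Jun and Fos proteins and likewise its own reverse complement, was found in 7.81% of all promoters and in none of the 7 promoter windows of the 6 members. A match of letters is a description and does not show that a factor binds.

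Read depth lay between 11242313 and 24457312 reads per library. The first p38-MAPKi library at E3.5 + 7 h stood apart, with the lowest depth and with 13998 genes that had a read against 16340 to 17642 in the other 11 libraries. Log2 differences of the 7 genes at E3.5 + 7 h are therefore given with and without it. All levels are RPKM, read counts scaled to exon length and library depth, and intervals of a single library are 95% Poisson intervals of its reads, which cover counting error only. Each of the 3 blastocyst lineages had an abundant marker. Krt8 (trophectoderm) had 473.7 to 754 RPKM, Pou5f1 (epiblast) 350.3 to 503 RPKM, and Gata6 (PrE) 80.9 to 129 RPKM. Other markers of the same lists were sparse, namely Elf5 (trophectoderm), Fgf4 (epiblast), and Gata4, Sox17, and Sox7 (PrE). The paper describes GATA6 together with NANOG in uncommitted cells of the early inner cell mass, so Gata6 alone does not show PrE cells. Of markers of maternal cells, the sums over 5 cumulus and granulosa genes stayed between 0.216 and 1.27 RPKM. Those over 3 oviduct genes stayed between 0.521 and 1.29 RPKM. Fshr, a cumulus and granulosa gene, had no read in any library. Of 4 blood genes, Hbb-bs and Ptprc had no read, Hba-a1 had 0 to 20 reads, and Cd68 had 57 to 199 reads (2.65 to 7.43 RPKM).

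Among the 7 genes, Stat3 and Socs1 had the highest levels in the 6 control libraries, with means of 19.6 and 20.6 RPKM. Their ranges of 15.5 to 23.2 RPKM for Stat3 and 16.8 to 23.8 RPKM for Socs1 overlapped, so their order was not resolved. Jak1 followed at 12.1 RPKM, with all 6 libraries (9.63 to 14.1 RPKM) below the lowest value of the former genes. Socs2 (mean 2.50 RPKM), Socs3 (2.12 RPKM), and Il6st (1.41 RPKM) formed a lower tier, in which the range of Socs3, 1.03 to 4.41 RPKM, enclosed that of Socs2 and overlapped that of Il6st, 0.995 to 1.90 RPKM. Lifr was lowest at 0.373 RPKM, with 0.289 to 0.463 RPKM over the control libraries. The receptor chains thus had the lowest mean RPKM of the set, below the kinase, the transcription factor, and all 3 feedback inhibitors. RPKM depends on the counted exon length, 11099 bases for Il6st and 2891 for Socs3, and the order of Il6st and Socs3 was not resolved.

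**Figure D1:**
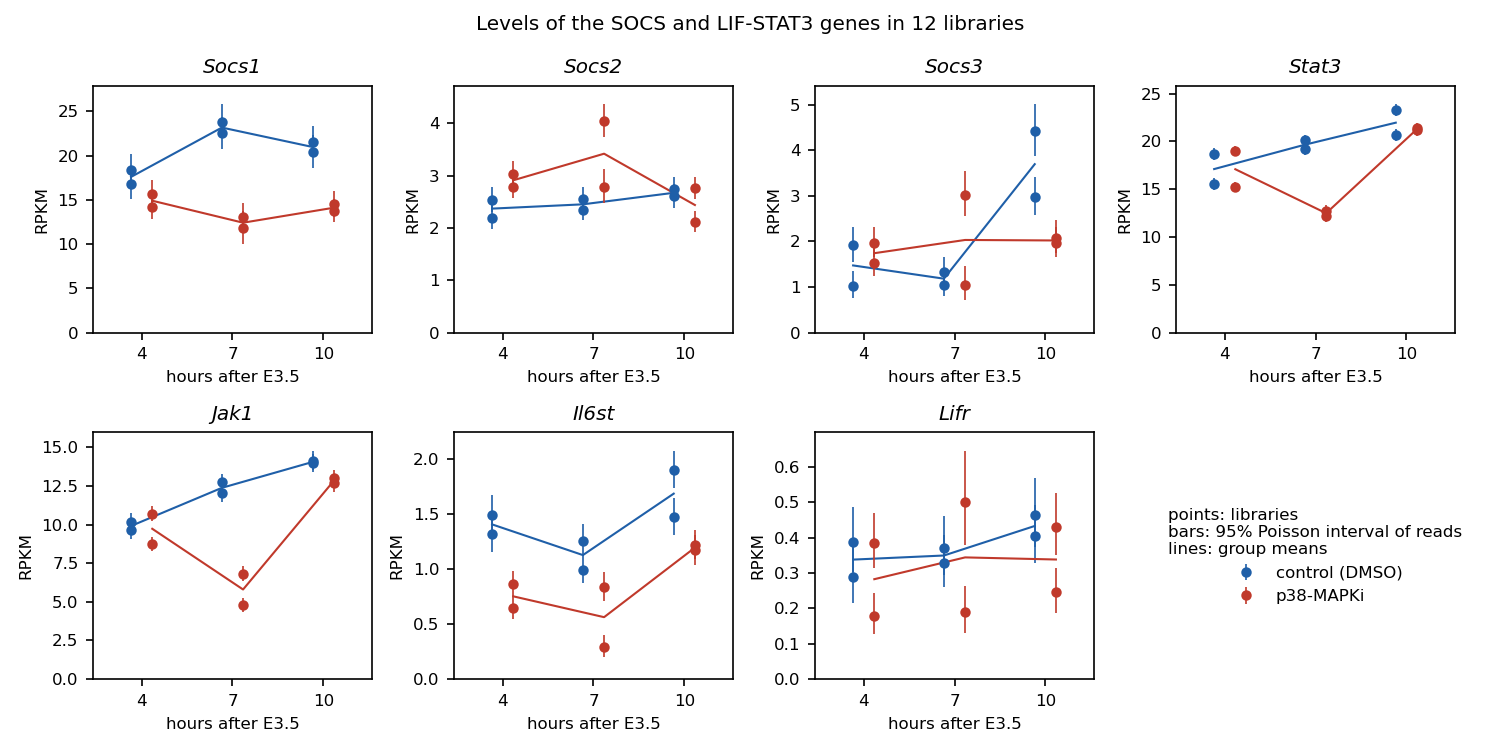
Level of each gene (vertical axis, RPKM, from 0) against hours after E3.5 (horizontal axis) in the 12 libraries. Points are libraries of control (blue) and p38-MAPKi (red) embryos, bars are 95% Poisson intervals of their reads, and lines join the means of the 2 libraries of a group. Both red points of Socs1 lie below both blue points at all 3 times, whereas those of Stat3 and Jak1 lie far below the blue points at 7 h and near them at 4 and 10 h.

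Of the feedback inhibitors, Socs1 was lower in both p38-MAPKi libraries than in either control library at every time. Socs1 (ENSMUSG00000038037.5, chr16:10783808-10785536 in GRCm38) had 16.8 and 18.4 RPKM in control and 14.1 and 15.7 RPKM in p38-MAPKi libraries at E3.5 + 4 h. After 7 h the values were 23.8 and 22.5 RPKM against 11.8 and 13.0 RPKM, and at E3.5 + 10 h 20.4 and 21.6 RPKM against 14.5 and 13.7 RPKM. The control means stood 1.18-fold, 1.87-fold, and 1.49-fold above the p38-MAPKi means at the 3 times, with log2 differences (p38-MAPKi minus control) of -0.24, -0.90, and -0.57. All 6 p38-MAPKi values lay between 11.8 and 15.7 RPKM, so the wider gap at 7 h went with a higher control level as well as a lower p38-MAPKi level. The lowest library had 162 reads of the gene, with an interval of 10.1 to 13.8 RPKM that did not reach the control values. Without the shallow library the log2 difference at 7 h was -0.83.

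Socs2 and Socs3 did not share this profile. Socs2 (ENSMUSG00000020027.18, chr10:95385362-95417180) had 2.20 and 2.54 RPKM in control against 2.78 and 3.04 RPKM in p38-MAPKi libraries at E3.5 + 4 h, and 2.56 and 2.34 RPKM against 2.79 and 4.04 RPKM at E3.5 + 7 h. Both p38-MAPKi libraries were above both controls at these times, with log2 differences of 0.30 and 0.46, and the second rested mainly on 1 library: it was 0.72 without the first p38-MAPKi library and 0.19 without the second. At E3.5 + 10 h the groups overlapped, with 2.60 and 2.74 RPKM against 2.12 and 2.76 RPKM and a log2 difference of -0.14.

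Socs3 (ENSMUSG00000053113.3, chr11:117966079-117970047), the gene whose promoter holds the STAT motif, had 1.03 and 1.91 RPKM in control and 1.96 and 1.52 RPKM in p38-MAPKi libraries at E3.5 + 4 h. After 7 h it had 1.33 and 1.04 RPKM against 1.05 and 3.02 RPKM, so that 1 p38-MAPKi library lay within the control values and the other above them. The log2 difference of 0.60 at 7 h became 1.36 without the first p38-MAPKi library and -0.17 without the second. Groups separated only at E3.5 + 10 h, when control libraries reached 4.41 and 2.97 RPKM and p38-MAPKi libraries 2.07 and 1.97 RPKM, a log2 difference of -0.84. The separation at 10 h went with a higher control level, as the p38-MAPKi means were 1.74, 2.03, and 2.02 RPKM at 4, 7, and 10 h. Reads were few, from 34 to 243 per library.

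Stat3, the transcription factor (ENSMUSG00000004040.16, chr11:100885098-100939540), had overlapping groups at E3.5 + 4 h, with 15.5 and 18.7 RPKM in control and 19.0 and 15.2 RPKM in p38-MAPKi libraries. At E3.5 + 7 h it had 19.2 and 20.1 RPKM against 12.2 and 12.8 RPKM, a log2 difference of -0.65 with no overlap, and of -0.62 without the shallow library. At E3.5 + 10 h the p38-MAPKi values of 21.2 and 21.4 RPKM lay inside the control values of 20.7 and 23.2 RPKM. Jak1, the kinase (ENSMUSG00000028530.14, chr4:101152367-101265282), followed a similar course. It had 9.63 and 10.2 RPKM against 10.7 and 8.74 RPKM at E3.5 + 4 h, 12.01 and 12.7 RPKM against 4.78 and 6.82 RPKM at E3.5 + 7 h, and 14.1 and 14.0 RPKM against 12.7 and 13.0 RPKM at E3.5 + 10 h. The control mean of Jak1 at 7 h was 2.17-fold the p38-MAPKi mean, with a log2 difference of -1.12 that was -0.86 without the shallow library. By 10 h the difference was -0.13, although the groups still did not overlap. Counted exons overlap those of Stat5a on the opposite strand by 72 bases in Stat3 and those of Raver2 by 4 bases in Jak1.

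Both receptor chains were weakly detected. Il6st, which encodes gp130 (ENSMUSG00000021756.12, chr13:112464070-112510086), was lower in both p38-MAPKi libraries than in either control library at all 3 times, as Socs1 was. It had 1.32 and 1.49 RPKM in control against 0.863 and 0.642 RPKM in p38-MAPKi libraries at E3.5 + 4 h, 1.26 and 0.995 RPKM against 0.289 and 0.837 RPKM at E3.5 + 7 h, and 1.47 and 1.90 RPKM against 1.17 and 1.22 RPKM at E3.5 + 10 h. Log2 differences were -0.92, -1.19, and -0.49. The value of 0.289 RPKM came from 36 reads in the shallow library, and without this library the difference at 7 h was -0.42. Lifr (ENSMUSG00000054263.12, chr15:7129559-7197489) had overlapping groups at every time, and its 12 libraries held 34 to 98 reads each and 0.179 to 0.499 RPKM. Its log2 differences of -0.35, -0.18, and -0.41 lie within the spread of the p38-MAPKi libraries, which was 0.386 and 0.179 RPKM at 4 h, 0.499 and 0.189 RPKM at 7 h, and 0.431 and 0.245 RPKM at 10 h. Without the shallow library the difference at 7 h was -0.89.

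Counted together, 1 of the 7 genes lay above and 2 below the controls in both p38-MAPKi libraries after 4 h, 1 above and 4 below after 7 h, and 0 above and 4 below after 10 h. Over all tested genes, 26.8%, 23%, and 22.6% lay above and 13.7%, 38.7%, and 29.6% below at these times. Socs1 and Il6st lay below at every time, and the share of all tested genes that did so is not given here. Median log2 differences of the 7 genes were -0.03, -0.65, and -0.41, beside 0.07, -0.14, and -0.02 for all tested genes. The counts and medians of the 7 take in untested genes, Lifr at each time and Il6st at 7 h. The median at 10 h is the value of Lifr, whose groups overlapped. Of the 5 tested members at 7 h, 1 lay above and 3 below. At least 1 RPKM in 2 of the 4 libraries of a comparison was required for the limma test, which 6, 5, and 6 of the 7 genes met. Lifr did not pass at any time, Il6st did not pass at 7 h, and at 4 h Il6st passed through its control libraries alone. An adjusted p under 0.05 was reached by 0 members at 4 h, by Socs1 and Jak1 at 7 h, and by Socs1 at 10 h, beside 0.909%, 2.13%, and 0.803% of all tested genes, and nothing is read from these calls because the contrast had served to choose the genes. Leaving out either control library at 7 h left 0 members called, and so did leaving out any of the 4 libraries at 10 h.

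Gene length moved with the differences at E3.5 + 7 h. Over 4 bins of tested genes of equal size, ordered from the shortest to the longest exon length, the median log2 difference was 0.27, -0.04, -0.23, and -0.45 at 7 h, against 0.20, 0.14, 0.04, and -0.10 at 4 h and -0.05, -0.03, -0.02, and -0.00 at 10 h. Stat3, Jak1, Il6st, Lifr, and Socs2 belong to the longest bin and Socs1, with 1220 counted bases, to the shortest. With the trend on length removed from each library, the difference of Stat3 at 7 h shrank from -0.65 to -0.20, that of Jak1 from -1.12 to -0.75, and that of Il6st from -1.19 to -0.68. Differences grew for the genes that stood against the trend, from -0.90 to -1.15 for Socs1 and from 0.46 to 0.91 for Socs2, and Lifr changed sign from -0.18 to 0.30. The part of the length trend in the 7 h values was not tested. Centring each library on its median gave -0.71 for Socs1, -0.46 for Stat3, and -0.92 for Jak1 at 7 h.

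**Figure D2:**
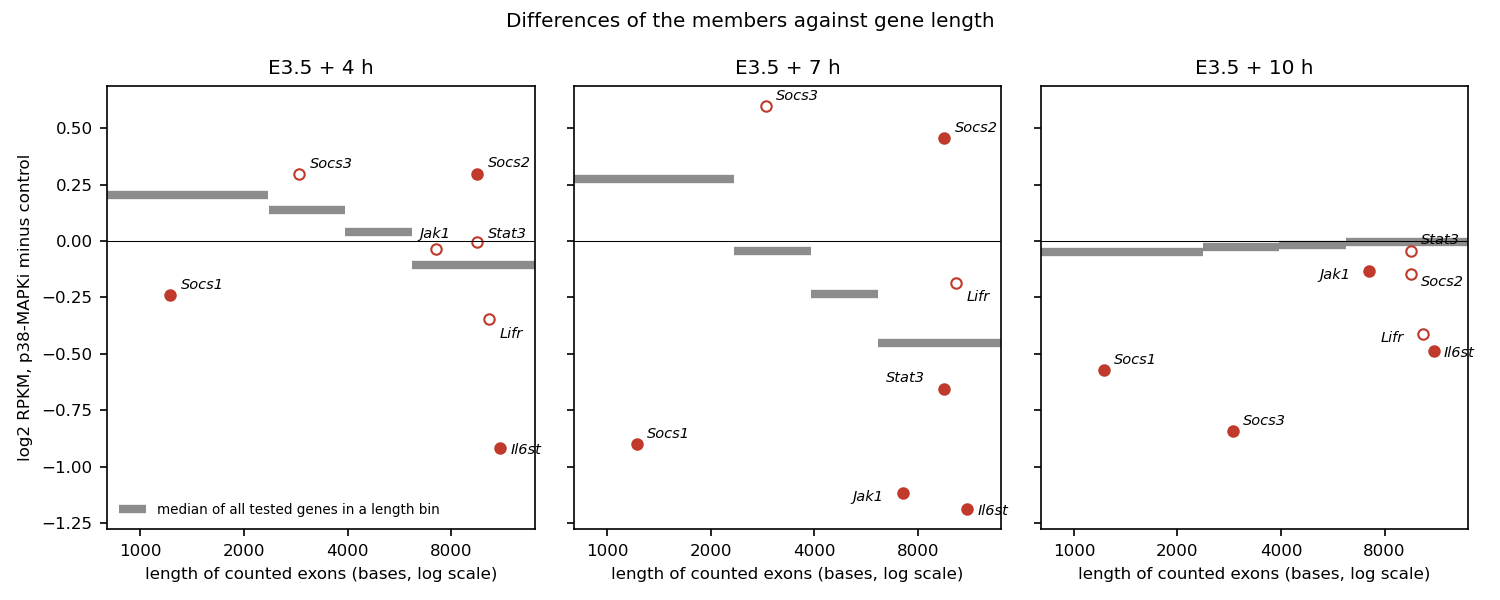
Log2 difference of each member (vertical axis, p38-MAPKi minus control) against the length of its counted exons (horizontal axis, bases, log scale) at the 3 times. Filled circles are genes whose p38-MAPKi libraries do not overlap the controls, open circles are genes with overlap, and grey bars are the medians of all tested genes in the 4 length bins. At 7 h the bars descend from 0.27 to -0.45, with Socs1 below the bar of short genes and Socs2 above that of long genes.

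Untreated development was compared between the control libraries, a contrast that did not serve to choose the genes, although the same libraries entered the p38-MAPKi contrast. Stat3 and Jak1 had higher means at each later time, Stat3 from 17.1 to 19.7 to 21.96 RPKM and Jak1 from 9.91 to 12.4 to 14.0 RPKM. Socs3 had the widest step, from 1.18 ± 0.205 RPKM (SD, n = 2) at E3.5 + 7 h to 3.69 ± 1.02 RPKM (SD, n = 2) at E3.5 + 10 h, a log2 difference of 1.63 ± 0.28 (SE). This step did not pass the threshold in limma, with an adjusted p of 0.267 over 10873 genes. From 4 to 10 h, Socs3 differed by 1.37 (limma, adjusted p = 0.0904), Jak1 by 0.50 (limma, adjusted p = 0.114), and Stat3 by 0.36 (limma, adjusted p = 0.260) on the log2 scale. Socs1 had its largest difference from 4 to 7 h, 0.40 on the log2 scale (limma, adjusted p = 0.887).

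None of the 6 tested members was called by limma in these 3 comparisons, in which 0.492% (4 to 7 h), 0.0552% (7 to 10 h), and 0.471% (4 to 10 h) of all tested genes were called. At an unadjusted p under 0.05 by limma there were 1 (Socs1), 1 (Socs3), and 3 (Socs3, Jak1, and Stat3) members. Over all tested genes, 516 of 10776, 412 of 10873, and 1646 of 10825 reached it. Of the members, limma-voom on the recovered reads called 0, 0, and 3, and its share over all tested genes is not given here. The call of Socs3 turned on single libraries: from 7 to 10 h its adjusted p by limma was 0.0229 without the second 10 h library and 0.0225 without the first 7 h library. From 4 to 10 h, leaving out the second 10 h library called 1 member and leaving out the second 4 h library called 3.

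For the rest of the pathway, a list of 53 genes was followed by role: ligands of the gp130 family, receptors, the other JAK kinases, the other STATs, further inhibitors, partners of the SOCS box, and target genes. The list was chosen with earlier results of these data known. Its p38-MAPKi tests, including that of Myc below, are therefore a description and not independent support. With limma, 1 of 41 tested genes was called after 4 h, 0 of 40 after 7 h, and 0 of 41 after 10 h, beside the 0.909%, 2.13%, and 0.803% of all tested genes. At an unadjusted p under 0.05 by limma there were 2, 18, and 6 genes of the list. Over all tested genes, 1016 of 10781, 3102 of 10940, and 2172 of 10959 reached it. Of the list, limma-voom called 1, 10, and 3 genes, and its share over all tested genes is not given here. Median log2 differences of 0.04, -0.31, and -0.05 compare with 0.07, -0.14, and -0.02 for all tested genes. Both p38-MAPKi libraries lay above the controls for 10 of 41, 7 of 40, and 9 of 41 tested genes (26.8%, 23%, and 22.6% of all tested genes) and below for 7, 21, and 13 (13.7%, 38.7%, and 29.6% of all tested genes). At 7 h the count called depended on the settings of the fit, and it also changed when some single libraries were left out. With all kept, it was 13 in one fit over 12 libraries, 12 with the replicate number as a block, and 10 with voom. It was 2 with a pseudocount of 1 or a limit of 10 RPKM. It stayed at 0 under quantile normalization or median centring, when the RPKM limit was dropped, and when the variance or length trend was removed.

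The gene called was Myc, a proto-oncogene and a direct STAT3 target in embryonic stem cells. At E3.5 + 4 h it had 5.23 and 7.72 RPKM in control and 2.45 and 2.83 RPKM in p38-MAPKi libraries, and fell by 1.27 ± 0.27 (SE) on the log2 scale (limma, adjusted p = 0.0011). This SE came from the variance trend over all genes, so the spread of Myc itself did not enter. Myc was not called at 4 h without that trend (limma, adjusted p = 0.112) or with median centring (limma, adjusted p = 0.295). At E3.5 + 7 h it had 5.16 and 5.20 RPKM against 1.80 and 2.41 RPKM (log2 difference -1.32, limma, adjusted p = 0.0503), and after 10 h 6.79 and 6.86 RPKM against 3.11 and 5.52 RPKM (log2 difference -0.72, limma, adjusted p = 0.186). The p38-MAPKi libraries of Myc were below the controls at all 3 times. The call at 4 h was lost without either control library, with an adjusted p of 0.0613 without the first and 0.546 without the second by limma, and with a single fit over 12 libraries (limma, adjusted p = 0.150). At 7 h Myc was called instead without the first p38-MAPKi library (log2 difference -1.11, limma, adjusted p = 0.0255), without the second (0.00151), in the fit over 12 libraries (0.0113), with a pseudocount of 1 (0.0423), and with voom (0.0302). At 10 h it was called without the second p38-MAPKi library (log2 difference -1.13, limma, adjusted p = 0.0257).

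Klf5 and Pramel7 had the highest levels of the 13 target genes. Klf5, a transcription factor of the inner cell mass and trophectoderm, lay below the controls at all 3 times, with 160 and 166 RPKM against 139 and 118 RPKM at 4 h, 182 and 182 RPKM against 146 and 110 RPKM at 7 h, and 188 and 198 RPKM against 181 and 168 RPKM at 10 h. None of these differences passed the test (limma, adjusted p = 0.626, 0.123, and 0.284). Zfp36, which encodes an mRNA decay factor, was the other gene on 1 side at all times, with log2 differences of -0.43, -0.66, and -0.32 and no call (limma, adjusted p = 0.651, 0.152, and 0.202). Its promoter window held the STAT motif, as did that of Cish and no other of the 50 windows of 38 pathway genes. Pramel7, a gene of the naive state, went the other way, with log2 differences of 0.03, 0.15, and 0.21 (limma, adjusted p = 0.977, 0.558, and 0.261). Of the 12 tested targets, 9 lay below the controls and 1 above at 7 h, when 38.7% and 23% of all tested genes did so. The share of all tested genes on 1 side at all 3 times is not given here.

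Among the ligands, 3 of 9 genes could be tested at 4 and 7 h. Lif itself was detected at 3.13 to 6.85 RPKM, a level above that of its receptor Lifr in every library. It had log2 differences of 0.48, -0.06, and 0.25 (limma, adjusted p = 0.618, 0.902, and 0.410). The receptor genes Il6ra (1.26 to 2.15 RPKM) and Il11ra1 (0.676 to 1.62 RPKM) were sparse as well. Neither was called (limma, adjusted p from 0.303 to 0.973).

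All 3 other JAK kinases were lower in both p38-MAPKi libraries than in either control at E3.5 + 7 h, as 38.7% of all tested genes were, and none passed the test. Tyk2 had 5.37 and 6.17 RPKM against 3.30 and 3.46 RPKM at 7 h (log2 difference -0.77, limma, adjusted p = 0.0869), and Jak3 had 4.46 and 5.62 RPKM against 4.09 and 3.80 RPKM (log2 difference -0.34, limma, adjusted p = 0.377). Jak2, added after its values were seen to complete the 3, had 5.06 and 5.15 RPKM against 2.35 and 2.86 RPKM (log2 difference -0.98, limma, adjusted p = 0.0652). At 10 h the differences of Tyk2, Jak3, and Jak2 were -0.05, 0.26, and -0.15. Of the other STATs, Stat6 had the highest level, 7.34 to 11.96 RPKM, with log2 differences of 0.34, -0.09, and 0.18. Stat2, which acts in interferon signalling, had 2.16 to 4.62 RPKM and log2 differences of 0.44, 0.26, and 0.32, and neither gene was called (limma, adjusted p from 0.331 to 0.818).

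All 13 further inhibitors were tested and none was called, with 7 below the controls and 1 above at 7 h, beside 38.7% and 23% of all tested genes. The most abundant were Pias4, a SUMO ligase that inhibits STATs, at 22.6 to 38.1 RPKM, and Ptpn2, a phosphatase of JAK1 and STAT proteins, at 17.7 to 26.0 RPKM. Pias4 came nearest to the threshold at 10 h, with 28.9 and 30.7 RPKM against 22.6 and 23.4 RPKM (log2 difference -0.38, limma, adjusted p = 0.0727). Of the 4 partners of the SOCS box, which link SOCS proteins to ubiquitin ligases, 3 lay above the controls at 7 h, as 23% of all tested genes did. Elob had 232 and 159 RPKM against 273 and 281 RPKM (log2 difference 0.53, limma, adjusted p = 0.149) and Eloc 227 and 196 RPKM against 372 and 271 RPKM (log2 difference 0.59, limma, adjusted p = 0.111) at that time. Neither difference passed the test.

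**Figure D3:**
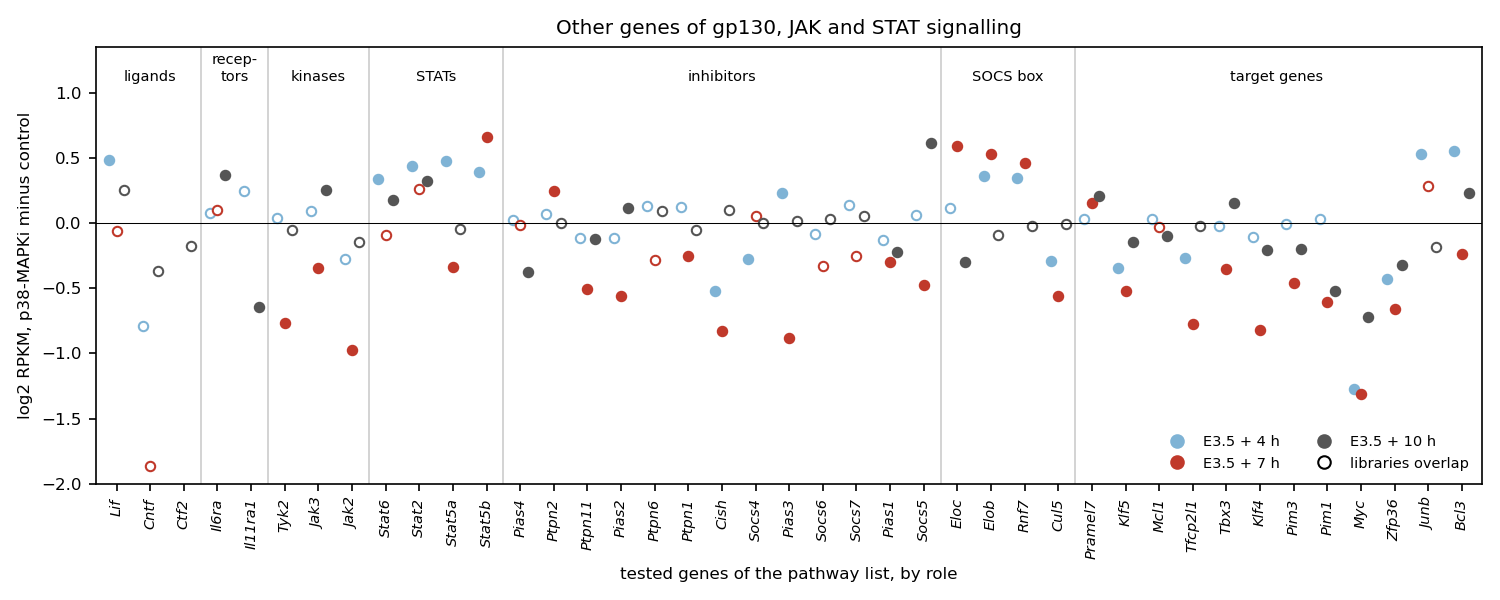
Log2 difference (vertical axis, p38-MAPKi minus control) of tested genes of the pathway list, ordered by role along the horizontal axis and coloured by time. Filled circles are genes whose p38-MAPKi libraries do not overlap the controls. Myc lies at -1.27 at 4 h and -1.32 at 7 h, and 21 filled circles lie below 0 at 7 h.

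Marker lists of the lineages had no called gene in p38-MAPKi at any time, and their part in the levels of the 7 genes was not tested. Summed levels of 5 PrE markers were 116 to 142 RPKM in control and 91.8 to 94.2 RPKM in p38-MAPKi libraries at 7 h, and did not separate in this direction at 4 h (95.9 to 118 against 96.1 to 129 RPKM) or 10 h (120 to 124 against 128 to 130 RPKM). Most of these sums was Gata6, and Gata4, Sox17, and Sox7 stayed at or under 4.38 RPKM. Median log2 differences over the 4 tested PrE markers were -0.10, -0.46, and -0.13 at 4, 7, and 10 h, so that at 10 h the median and the sum differed in sign. Those over 5 tested trophectoderm markers were 0.16, -0.39, and -0.08, and those over 5 epiblast markers -0.14, -0.14, and -0.10. For 5 epiblast markers the sums were 598 to 601 RPKM against 539 to 566 RPKM at 10 h. The sums of 6 trophectoderm markers at that time overlapped, with 2272 to 2502 RPKM against 2122 to 2412 RPKM. Of 4 blood markers only Cd68, a macrophage gene also found in lysosomes of other cells, was tested, and it was called higher at 4 h (log2 difference 1.06) but not at 7 h (0.22) or 10 h (-0.70).

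To place the SOCS genes among all others, the 3 genes of most similar profile were found for each. Likeness was the root mean square (RMS) difference of log2 levels over the 12 libraries after each gene was centred on its mean, over 10556 genes with a mean log2 RPKM of at least 0. For Socs1 they were Slc2a1 (0.114), which encodes the glucose transporter GLUT1, Neu1 (0.141), a lysosomal sialidase, and Fam98a (0.149), set against an RMS of 0.323 for Socs1 around its own mean. Slc2a1 had log2 differences of -0.30, -0.74, and -0.59 at the 3 times, next to the -0.24, -0.90, and -0.57 of Socs1. For Socs2 they were 2410015M20Rik (0.0937), Mbd3 (0.0967), a subunit of the NuRD complex, and Tkt (0.0974), the transketolase of the pentose phosphate pathway, with an RMS of 0.231 for Socs2 itself. Socs3 had no neighbour as near: Snai1 (0.361), a transcription factor of epithelial-mesenchymal transition, H2-Q2 (0.398), a class I histocompatibility gene, and Srp54b (0.420) compare with an RMS of 0.644 for Socs3 itself. Replicates of Socs3 also differed most, with a pooled SD of 0.557 on the log2 scale, against 0.080 for Socs1 and 0.207 for Socs2. The part of this spread in the distances was not tested. Reads of Srp54b and H2-Q2 may be shared with near-identical copies, so their levels are uncertain. The 12 libraries share their treatment groups, and likeness is given without a test.

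**Figure D4:**
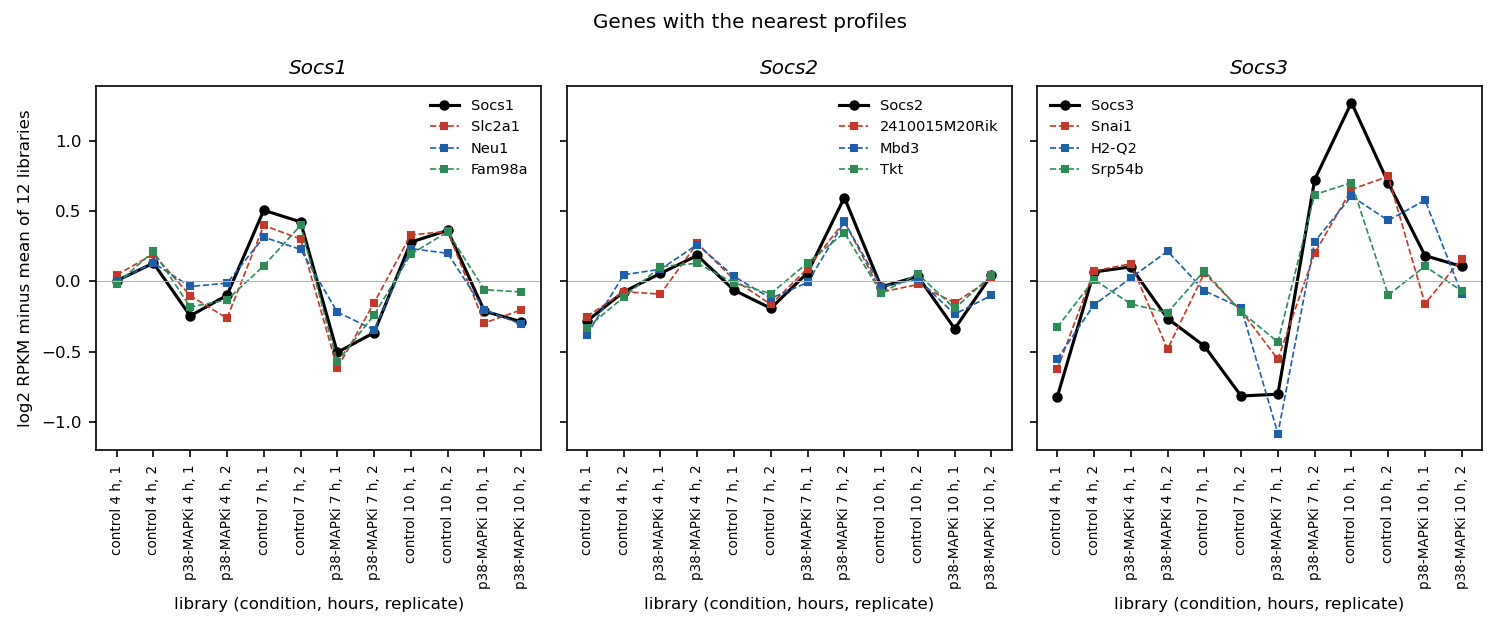
Log2 level minus the gene's mean over 12 libraries (vertical axis) for Socs1, Socs2, and Socs3 (black) and the 3 genes of nearest profile (coloured), with libraries in order of time, condition, and replicate along the horizontal axis. Socs1 is followed within an RMS of 0.149 by its 3 neighbours, whereas those of Socs3 differ from it by at least 0.361.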

How the data were processed

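The authors trimmed single-end reads with Trim Galore 0.4.1, mapped them to GRCm38 with HISAT2 2.0.5 (submitters' processing notes), counted them over genes in SeqMonk, and deposited log2 RPKM for 34245 genes in 12 libraries. Genes with 0 reads hold the value that 0.9 of a read would have. Whole reads were recovered from these values for 34240 genes (tolerance 0.02 of a read), with lengths from GENCODE M21 transcripts or a search. The strand option and the handling of isoforms are not given in the sources used here, although the library kit marks strand.

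Log2 values as deposited were fitted with limma 3.58.1 (eBayes with trend) in R 4.3.3 on the 4 libraries of each comparison, for genes with at least 1 RPKM in 2 of them. Adjusted p-values (Benjamini-Hochberg, threshold 0.05) cover all tested genes. At E3.5 + 4 h and in the control comparison of 4 and 7 h, limma gave every gene the variance of the trend, so a gene's own spread did not enter. Summaries used Python 3.11.15.

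The members and lists were chosen with earlier results of these data known. Named are all members, and from the pathway list every called gene, the 2 of highest mean log2 RPKM in each role, and every gene with p38-MAPKi libraries on the same side of the controls at all times. A gene that this rule takes is not reported here, although it is counted in the totals of the list. For each Socs gene the 3 nearest profiles are named, and lineage markers as sums. Alternatives were a fit over 12 libraries, limits of 10 RPKM or none, a pseudocount of 1, no trend, median centring, quantile normalization, voom, the replicate number as a block, and leaving out each library. Removal of the length trend (loess, span 0.5), and the count of called members under each alternative, were added after seeing the data.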

Additional observations from a re-analysis of the deposited data

Results flagged for a closer look

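Among the named pathway genes, Eloc and Jak3 were those whose p38-MAPKi libraries changed sides of the controls between times. They lay wholly on 1 side at E3.5 + 7 h and wholly on the other at E3.5 + 10 h. Other tested genes of the list did so as well, and the share over all tested genes is not given here. The log2 difference of Eloc was 0.59 at 7 h and -0.30 at 10 h, and for Jak3 it was -0.34 at 7 h and 0.26 at 10 h. The difference between the times was not tested. In the reported limma fit neither gene was called at either time, while Eloc was called at 7 h in a fit over 12 libraries (limma, adjusted p = 0.038), with the replicate block (0.0238), and with voom (0.0232), and at 10 h with voom (0.0331).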

How the results depend on the processing

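The sign of a p38-MAPKi difference changed under some alternative for Lifr at all 3 times, Socs3 at 4 and 7 h, Stat3 at 4 and 10 h, Jak1 at 4 h, and Socs2 at 10 h, in each case where the groups overlapped, and under none of those run for Socs1 or Il6st. Removing the length trend gave log2 differences of -0.44 for Socs1 at 4 h and, at 7 h, -1.15 for Socs1, 0.91 for Socs2, -0.20 for Stat3, -0.68 for Il6st, and -0.75 for Jak1. At 7 h, median centring gave -0.71 (Socs1), -0.46 (Stat3), and -0.92 (Jak1), quantile normalization -0.79 (Socs1), 0.65 (Lifr), -0.66 (Il6st), and -0.94 (Jak1), and a pseudocount of 1 gave -0.46 (Il6st). Quantile normalization gave 0.36 for Lifr at 10 h. Leaving out each library in turn gave -0.17 to 0.16 for Stat3 at 4 h and, at 7 h, 0.19 to 0.72 for Socs2, -0.17 to 1.36 for Socs3, -0.89 to 0.52 for Lifr, -1.96 to -0.42 for Il6st, and -1.37 to -0.86 for Jak1.

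Pathway genes called at 4 h (1 in the reported fit) were 0 in the fit over 12 libraries, at 10 RPKM, without the length trend, with median centring, without the filter, without the variance trend, and with quantile normalization, and 0 to 1 without each library. At 7 h (0 in the reported fit) they were 13 in the fit over 12 libraries, 2 at 10 RPKM, 2 with a pseudocount of 1, 10 with voom, and 0 to 12 without each library. At 10 h (0 in the reported fit) they were 1 at 10 RPKM, 3 with voom, and 0 to 1 without each library. Members called at 7 h (2 in the reported fit) were 0 without the length trend, with median centring, without the filter, without the variance trend, and with quantile normalization, and 0 to 3 without each library. At 10 h (1 in the reported fit) they were 0 in the fit over 12 libraries, without the length trend, without the filter, without the variance trend, and without any of the libraries (0 to 0). In controls, members called from 4 to 10 h were 1 at 10 RPKM, 3 with voom, and 0 to 3 without each library, and from 7 to 10 h 0 to 1 without each library. The share of all tested genes called under each alternative is not given here. The cause was not tested.

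Same-numbered libraries did not deviate together at every time (correlations of -0.01, 0.16, and 0.17 at 4, 7, and 10 h), and the labels do not say that a number marks a shared batch. With the replicate block, pathway genes called were 1 at 4 h, 12 at 7 h, and 1 at 10 h. Members called with the block were 0, 3, and 1 at the 3 times, 0 from 4 to 7 h, 1 from 7 to 10 h, and 2 from 4 to 10 h in controls. The share of all tested genes called with the block is not given here, so nothing is read from these counts. Depth limits Lifr, Il6st, and Socs3, which had as few as 34 to 36 reads in a library.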
